A study of Homo sapiens with 21 samples.

Results

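TP-472, a small molecule that occupies the bromodomains of BRD9 and BRD7, was compared with no treatment in SK-MEL-147, an established human melanoma cell line. The comparison rested on 3 TP-472 libraries and 3 untreated libraries, which were 6 of the 21 libraries of the series, chosen by their treatment label. All libraries came from the same cell line, grown under the same stated conditions, and the RNA-seq libraries were prepared from total RNA by Illumina's protocols. The other groups of 3 libraries had received GSK-484, an inhibitor of the arginine deiminase PADI4, GSK-591, an inhibitor of the arginine methyltransferase PRMT5, MS023, an inhibitor of type I arginine methyltransferases, UNC0642, an inhibitor of EHMT1 and EHMT2, or JQ-1, an inhibitor of the BET bromodomain proteins. The labels used here state neither the dose, nor the exposure time, nor a vehicle, and they call the controls untreated. Nothing in the labels says that the replicates were separate cultures, so a p-value here reflects the scatter among these libraries only, and that scatter may be technical. The measurement was made on bulk RNA from 1 line, in which fewer cells of a kind and less RNA per cell cannot be told apart.

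Bromodomains bind acetylated lysines on histones and other proteins. BRD9 is a subunit of the non-canonical form of the SWI/SNF chromatin remodelling complex, and BRD7 is a subunit of its PBAF form. Blocking a bromodomain displaces the reader from acetylated chromatin without removing the protein, and the messenger RNA of the target itself does not report on whether the protein was inhibited.

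Expression levels are given as CPM, the usual depth-scaled unit of sequencing counts, computed from the deposited expected counts and the library total after trimmed-mean (TMM) scaling, not divided by gene length. Changes are log2 fold changes of TP-472 over the other group with their standard error (SE), from edgeR's quasi-likelihood test fitted over all 21 libraries. A gene was called higher or lower where the Benjamini-Hochberg adjusted p, written below as edgeR adjusted p, was under 0.05 over the 15062 genes tested. The words rose and fell are used only of genes that passed this test. Gene coordinates refer to hg38 and were read from GENCODE 29.

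The untreated libraries carried a trend with base composition that the treated ones did not share, so each gene was also compared with the GSK-484 libraries. The slope of log2 CPM on transcript GC content, per 10 percentage points and relative to the mean of all libraries, ran from -0.0095 to 0.038 in TP-472 libraries, from -0.031 to 0.046 in GSK-484 libraries and from -0.18 to -0.096 in untreated libraries. Over untreated cells, the median log2 fold change with TP-472 was -0.15 for the 2371 genes with at most 40% GC and 0.24 for the 2000 genes with over 60% GC. Over GSK-484 cells the same medians were -0.024 and 0.027. A further set of values came from the comparison with untreated cells after the GC trend of each library was removed. GSK-484 is itself a treatment, so a difference from it belongs to either compound, and both comparisons share the TP-472 libraries.

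**Figure D1:**
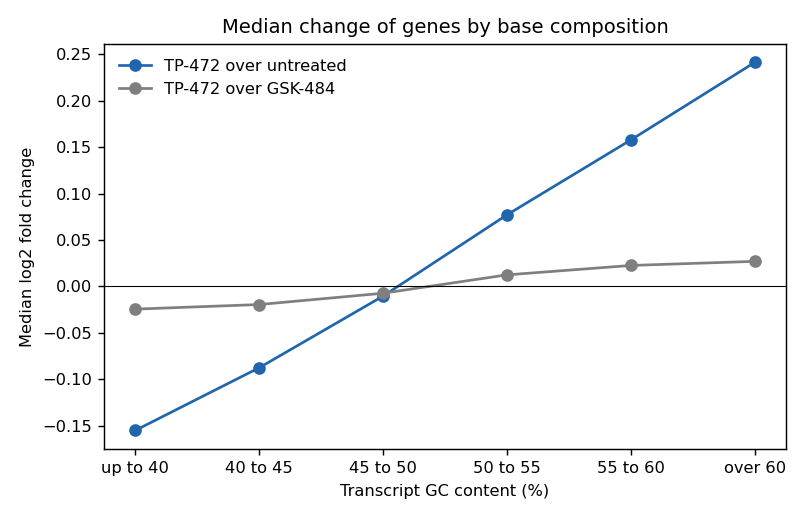
Median log2 fold change of tested genes (y axis) in 6 classes of transcript GC content (x axis, %), for TP-472 over untreated cells (blue) and TP-472 over GSK-484 cells (grey). The blue line climbs from -0.15 to 0.24 across the classes, and the grey line stays between -0.024 and 0.027.

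Depth was similar between the groups. Summed expected counts were 36983672 to 47025796 in TP-472 libraries, 36316241 to 41160857 in GSK-484 libraries and 35089548 to 47741066 in untreated libraries, and the common coefficient of variation between replicates was 5.09%. Ribosomal RNA genes took 6.004 to 7.27% of counts with TP-472, 7.24 to 9.21% with GSK-484 and 4.99 to 9.47% in untreated cells. Of 10 melanocyte lineage genes 5 were tested, and TYR and TRPM1 were at 0 in all 3 TP-472 libraries, while all 8 genes of the undifferentiated melanoma state were tested and summed to 2176 to 2221 CPM with TP-472, 2315 to 2372 CPM with GSK-484 and 2267 to 2320 CPM in untreated cells. The melanocyte list summed to 421 to 435 CPM with TP-472, 384 to 421 CPM with GSK-484 and 363 to 385 CPM in untreated cells, and SOX10, the lineage factor, was the member called higher over untreated cells (log2 fold change 0.19). The part of these shifts in the results below was not tested. The 6 leukocyte markers summed to 0.782 to 1.03 CPM with TP-472, 0.833 to 1.27 CPM with GSK-484 and 0.804 to 1.07 CPM in untreated cells, with PTPRC at 0 in all 3 TP-472 libraries. The 6 fibroblast markers summed to 9.75 to 10.4 CPM with TP-472, 10.0 to 11.2 CPM with GSK-484 and 9.57 to 10.6 CPM in untreated cells, with DCN at 0. No keratinocyte, fibroblast, endothelial or leukocyte marker that was tested passed the edgeR test in either comparison, none passed with DESeq2, and none had an unadjusted p under 0.05.

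Neither target gene was lower with TP-472. BRD9 (chr5:850291-892824) had 134, 134 and 136 CPM in TP-472 libraries, against 137, 136 and 133 CPM in GSK-484 libraries and 122, 125 and 126 CPM in untreated libraries. TP-472 libraries lay above all untreated ones and among the GSK-484 ones. The log2 fold change was 0.12 (SE 0.030) over untreated cells, with an edgeR adjusted p of 0.00454, and -0.0041 (SE 0.030) over GSK-484 cells, with an edgeR adjusted p of 0.968, and the call over untreated cells was lost when the GC trend was removed (0.031, edgeR adjusted p = 0.49). BRD7 (chr16:50313487-50368934) had 129.8, 129.5 and 135 CPM in TP-472 libraries, against 126, 129.6 and 134 CPM in GSK-484 libraries and 129, 123 and 129 CPM in untreated libraries, so that TP-472 lay above the untreated libraries and among the GSK-484 ones. Its log2 fold changes, which did not pass, were 0.050 (SE 0.037) over untreated cells, with an edgeR adjusted p of 0.327, and 0.017 (SE 0.037) over GSK-484 cells, with an edgeR adjusted p of 0.872. With the GC trend removed, BRD7 was called higher over untreated cells (0.13, edgeR adjusted p = 0.0108). Exons of BRD7 overlap the opposite-strand gene ADCY7 over 3593 bases, and the strandedness of the library is not given in the sources used here, so its value is uncertain. Exons of BRD9 overlap the opposite-strand gene TRIP13 over 182 bases and the same-strand gene ZDHHC11 over 222 bases. TRIP13 had means of 127 CPM with TP-472 and 120 CPM in untreated cells, so the BRD9 value carries the same limit.

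Calls with TP-472 were many over untreated cells, fewer over GSK-484 cells, and small in size. Over untreated cells 4788 genes were called, 31.8% of those tested, with 2602 higher (17.3%) and 2186 lower (14.5%), and the median called gene differed 1.17-fold. With the GC trend removed, 1716 genes were called over untreated cells, and 1188 of these were among the 4788 with the same direction. Over GSK-484 cells 311 genes were called (2.06%), 134 higher (0.89%) and 177 lower (1.18%), also with a median of 1.17-fold. In both comparisons together, 100 genes were higher (0.664%) and 126 lower (0.837%). Of these 226 genes, 2 were more than 1.5-fold higher and 9 more than 1.5-fold lower than in untreated cells, and none was changed 2-fold. One gene, SVIP, an inhibitor of endoplasmic reticulum associated degradation singled out here after its values were seen, was called in opposite directions. SVIP had 26.5, 28.6 and 29.9 CPM in TP-472 libraries, against 23.9, 23.4 and 24.3 CPM in GSK-484 libraries and 33.1, 30.3 and 33.1 CPM in untreated libraries. Its TP-472 libraries thus lay between the other 2 groups without overlapping either.

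The number of calls moved with single libraries. All gene lists below were chosen with earlier results of these data known, so their counts describe these libraries and are not independent evidence of direction. Their counts stand beside 17.3% of all genes higher and 14.5% lower over untreated cells. Over GSK-484 cells these shares were 0.89% and 1.18%. Over untreated cells, 2789 genes were called without untreated replicate 1, the library with the steepest GC slope. Over GSK-484 cells, 604 genes were called without GSK-484 replicate 1, 155 without GSK-484 replicate 3, 108 without TP-472 replicate 2 and 79 without TP-472 replicate 3, and the genes called in both comparisons then numbered 448, 107, 78 and 56. With total-count scaling, 134 genes were higher and 80 lower over GSK-484 cells, so the share of higher calls was 62.6%, against 43.1% with TMM. The edgeR test against a 1.2-fold minimum left 21 genes over untreated cells and 3 over GSK-484 cells, PLAU, CCR1 and IGFN1, all 3 called in both. The 15 largest rises and 15 largest falls were named only where the TP-472 libraries overlapped neither group, so their lack of overlap was set by that rule. Of the genes described with their lists, this holds for MYBL2, LIG1, TK1, HAUS8, CHAC1, TP53INP1, ZMAT3 and ABCA1. Each named gene below was recomputed under 14 alternatives per comparison, which were DESeq2, another scaling, no filter, the GC trend removed, a replicate block, the 2 groups alone and each library left out in turn. Of the 67 named genes called in both, the call over GSK-484 cells was lost by 16, 34 and 42 without TP-472 replicate 1, 2 and 3, by 5, 24 and 33 without GSK-484 replicate 1, 2 and 3, and by 44 in the fit of the 2 groups alone. The call over untreated cells was lost by at most 8 of the 67 under any 1 of the alternatives.

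**Figure D2:**
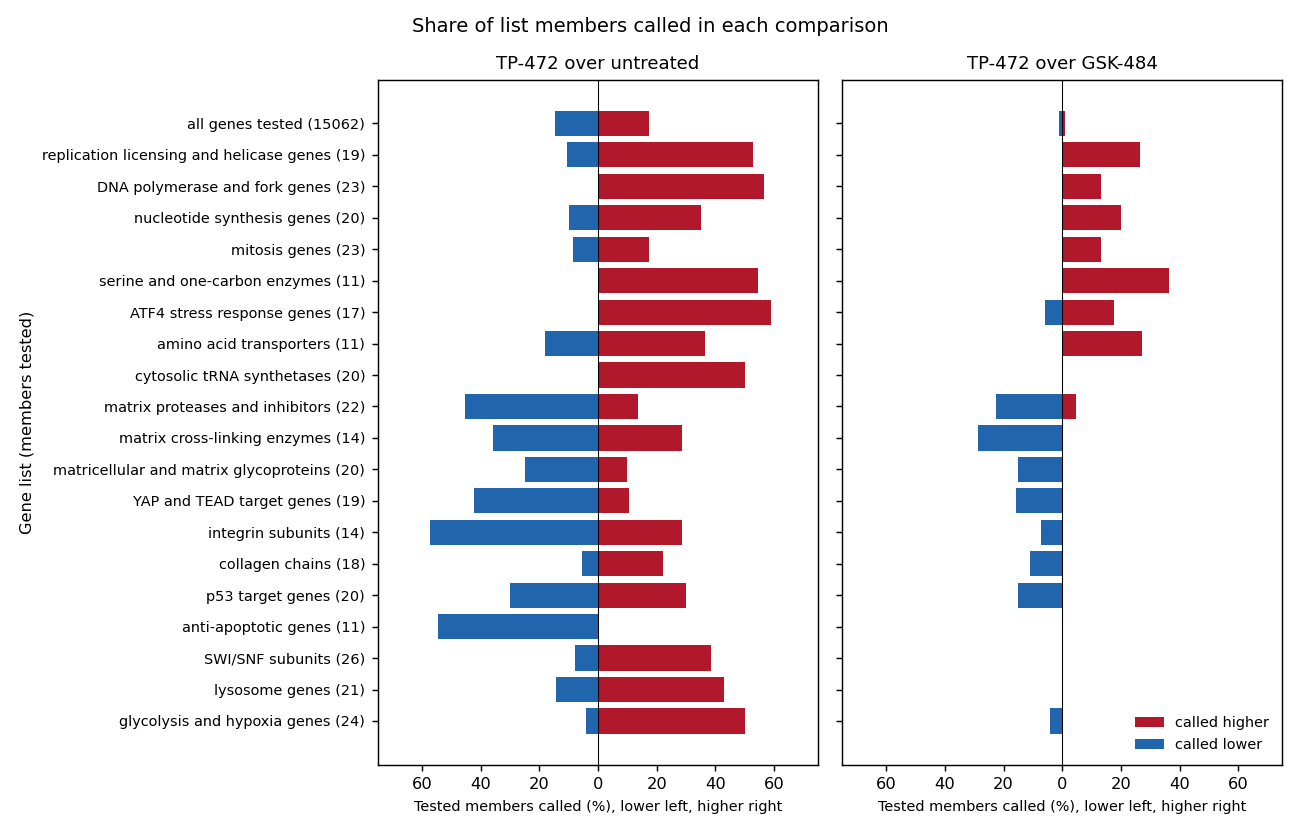
Share of the tested members of 19 gene lists, and of all genes tested, called higher (red, right) or lower (blue, left) in the 3 TP-472 libraries than in untreated (left panel) or GSK-484 libraries (right panel), x axis in %. In the right panel, the 5 of 19 licensing genes called and the 4 of 14 cross-linking enzymes called point in opposite directions.

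Several genes that license and unwind replication origins were higher with TP-472. Before DNA synthesis, CDT1 loads the MCM2 to MCM7 helicase onto origins marked by the ORC complex, and CDC45 and the GINS complex then activate it. Of 19 tested genes of this list, 10 rose and 2 fell over untreated cells, 5 rose and none fell over GSK-484 cells, and the same 5, CDT1, MCM5, MCM2, CDC45 and GINS4, rose in both. Over GSK-484 cells 14 of the 19 had an unadjusted p under 0.05 and were higher, where 7.44% of all genes were higher and 7.77% lower at that level, and none was lower at that level or by DESeq2. After GC trend removal 12 rose and none fell over untreated cells, against 5.72% and 6.05% of all genes. The median log2 fold change of the list was 0.13 over untreated and 0.16 over GSK-484 cells, against 0.012 and -0.0027 over all genes tested. Leaving out a library or changing a setting gave 1 to 7 higher calls over GSK-484 cells.

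GC trend removal reduced the values of several of these genes over untreated cells, to 0.24 for CDT1, 0.15 for MCM2 and 0.23 for MCM5, and each was still called. CDT1, the licensing factor (chr16:88803213-88809258), had 52.3, 57.0 and 57.1 CPM in TP-472 libraries, against 45.1, 44.1 and 41.3 CPM in GSK-484 libraries and 35.9, 42.5 and 39.5 CPM in untreated libraries. All 3 TP-472 libraries lay above the other 6. The log2 fold change was 0.50 (SE 0.067) over untreated cells, with an edgeR adjusted p of 3.02e-05, and 0.35 (SE 0.067) over GSK-484 cells, with an edgeR adjusted p of 0.00682. MCM2, a helicase subunit, had 149, 152 and 154 CPM in TP-472 libraries, against 131, 129 and 129.7 CPM in GSK-484 libraries and 122, 126 and 119 CPM in untreated libraries. The groups again did not overlap, which was so for 41.9% of all genes over untreated and 18% over GSK-484 cells. MCM2 changed by 0.31 (SE 0.038) over untreated cells, with an edgeR adjusted p of 1.74e-05, and 0.22 (SE 0.038) over GSK-484 cells, with an edgeR adjusted p of 0.00246, and it was called in both comparisons under all 14 alternatives. MCM5, another helicase subunit, had 86.1, 94.5 and 92.2 CPM in TP-472 libraries, against 75.2, 82.1 and 74.5 CPM in GSK-484 libraries and 66.5, 72.5 and 73.2 CPM in untreated libraries, with log2 fold changes of 0.36 (SE 0.049) over untreated and 0.24 (SE 0.049) over GSK-484 cells. CDC45, which joins the helicase when origins fire, had 24.2, 24.5 and 26.4 CPM in TP-472 libraries, against 21.7, 22.0 and 19.6 CPM in GSK-484 libraries and 20.3, 20.2 and 20.3 CPM in untreated libraries, with 0.30 (SE 0.056) over untreated and 0.25 (SE 0.056) over GSK-484 cells. The call over GSK-484 cells was lost for MCM5 without TP-472 replicate 2 or 3 or GSK-484 replicate 3 and with the 2 groups alone, for CDC45 without TP-472 replicate 2 or 3 or GSK-484 replicate 3 and with the 2 groups alone, and for CDT1 without TP-472 replicate 3. CDT1 had a fractional count in 1 of 9 libraries, so it is uncertain. GINS4, a GINS subunit outside the naming rule and noted after its values were seen, changed by 0.19 (SE 0.056) over untreated and 0.22 (SE 0.057) over GSK-484 cells, and it lost the second call in 7 of 14 alternatives. ORC2 (-0.16), an origin complex subunit, and CDC7 (-0.18), the kinase that triggers helicase activation, were the 2 members that fell over untreated cells, and neither was called over GSK-484 cells.

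E2F factors turn on many of these genes at the start of S phase. Of 17 tested E2F factors, cyclins and kinases of the G1 to S transition, 3 rose and 4 fell over untreated cells, 2 rose over GSK-484 cells, and E2F1 rose in both. Over untreated cells 17.3% of all genes were higher and 14.5% lower, so the 3 rises lay near the background. E2F1 (chr20:33675683-33686404), an activating member, had 81.0, 87.9 and 87.3 CPM in TP-472 libraries, against 73.9, 69.1 and 65.0 CPM in GSK-484 libraries and 64.7, 68.1 and 68.4 CPM in untreated libraries. The TP-472 libraries were the 3 highest. E2F1 changed by 0.35 (SE 0.043) over untreated cells, with an edgeR adjusted p of 1.74e-05, and 0.30 (SE 0.044) over GSK-484 cells, with an edgeR adjusted p of 5.16e-04, and it kept both calls under all 14 alternatives. With the GC trend removed, its value over untreated cells was 0.12, edgeR adjusted p = 0.0186. MYBL2, a factor that drives late cell-cycle genes, had 118, 118 and 120.5 CPM in TP-472 libraries, against 101, 97.1 and 99.0 CPM in GSK-484 libraries and 87.7, 90.7 and 91.0 CPM in untreated libraries. No library of the other 2 groups reached those of TP-472, which the rule that named MYBL2 required. MYBL2 changed by 0.41 (SE 0.039) over untreated cells, with an edgeR adjusted p of 2.22e-06, and 0.27 (SE 0.039) over GSK-484 cells, with an edgeR adjusted p of 6.19e-04, and it also kept both calls throughout, with 0.21 over untreated cells after GC trend removal. CDK6 (-0.38), E2F7 (-0.26), RB1 (-0.24) and E2F3 (-0.14) fell over untreated cells, and none of them was called over GSK-484 cells.

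A search for an E2F binding motif near these genes covered only the form given here. Other forms of the motif were not searched, so the unmarked letters may hold them. The letters TTTNGCGC were searched on both strands in the 250 bases before the RefSeq gene start (GRCh38.p14). They occurred in 1.54% of 27305 promoters and in 2.44% of the 11790 promoters matched to tested genes. In the 4 lists of replication, G1 to S and nucleotide genes, 14 of 66 promoters (21.2%) held the motif. Of the 9 among them that rose in both comparisons, 2 held it, and these are shown with the motif in capitals, 5′ to 3′ on the strand of the gene. The CDT1 window is chr16:88803539-88803788 on the plus strand, with the match starting 213 bases before the gene start and reading on the opposite strand. The E2F1 window is chr20:33686386-33686635 on the minus strand, with the match starting 20 bases before the gene start.
CDT1: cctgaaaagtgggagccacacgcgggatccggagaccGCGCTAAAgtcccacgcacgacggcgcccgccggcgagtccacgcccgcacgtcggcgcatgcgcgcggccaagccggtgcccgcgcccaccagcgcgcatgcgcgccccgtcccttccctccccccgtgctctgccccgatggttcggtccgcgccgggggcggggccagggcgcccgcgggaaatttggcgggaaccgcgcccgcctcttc
E2F1: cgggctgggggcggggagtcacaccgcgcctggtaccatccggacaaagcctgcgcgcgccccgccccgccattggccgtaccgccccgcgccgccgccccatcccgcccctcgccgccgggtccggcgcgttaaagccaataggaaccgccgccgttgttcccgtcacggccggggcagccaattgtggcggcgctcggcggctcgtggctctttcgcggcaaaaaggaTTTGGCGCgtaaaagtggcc
The windows run into the GENCODE 29 span of their genes because the 2 annotations place the start differently. A match describes the letters only, and binding was not measured.

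Genes that copy and join DNA at the fork also held calls. Of 23 polymerase and fork genes, 13 rose and none fell over untreated cells, where none was lower at an unadjusted p under 0.05 or by DESeq2. Over GSK-484 cells 3 rose and none fell (16 higher and none lower at an unadjusted p under 0.05, and 4 and none by DESeq2), and LIG1 and RFC4 rose in both. After GC trend removal 14 rose, and the median log2 fold change was 0.15 over untreated and 0.12 over GSK-484 cells. LIG1, which seals nicks between Okazaki fragments (chr19:48115445-48170603), had 63.1, 63.8 and 62.2 CPM in TP-472 libraries, against 55.4, 51.7 and 53.6 CPM in GSK-484 libraries and 42.9, 47.5 and 46.2 CPM in untreated libraries. All TP-472 libraries were above all others. LIG1 changed by 0.47 (SE 0.050) over untreated cells, with an edgeR adjusted p of 3.29e-06, and 0.24 (SE 0.049) over GSK-484 cells, with an edgeR adjusted p of 0.0128, and the call over GSK-484 cells was lost without TP-472 replicate 2 or 3 or GSK-484 replicate 2 and with the 2 groups alone. RFC4, a subunit of the clamp loader, changed by 0.22 (SE 0.056) over untreated and 0.21 (SE 0.056) over GSK-484 cells, and it lost that call in 8 of 14 alternatives, which included leaving out any of the TP-472 libraries.

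Of 20 nucleotide synthesis genes, 7 rose and 2 fell over untreated cells, 4 rose over GSK-484 cells, and TK1, TYMS and RRM2 rose in both. TK1, the salvage kinase for thymidine (chr17:78174075-78187233), had 72.0, 72.2 and 71.7 CPM in TP-472 libraries, against 62.7, 57.6 and 54.0 CPM in GSK-484 libraries and 50.2, 56.4 and 55.2 CPM in untreated libraries. The 3 TP-472 values lay within a narrow range above all others. TK1 changed by 0.42 (SE 0.055) over untreated cells, with an edgeR adjusted p of 2.24e-05, and 0.31 (SE 0.055) over GSK-484 cells, with an edgeR adjusted p of 0.00331. It kept both calls under all 14 alternatives, with 0.18 over untreated cells after GC trend removal. RRM2, the subunit of ribonucleotide reductase made in S phase, had 311, 303 and 305 CPM in TP-472 libraries, against 265, 253 and 268 CPM in GSK-484 libraries and 284, 281 and 289.8 CPM in untreated libraries. Here the GSK-484 libraries were the lowest group, and the log2 fold changes were 0.10 (SE 0.031) over untreated and 0.23 (SE 0.031) over GSK-484 cells, with the call over untreated cells lost with total-count scaling, no filter or the 2 groups alone. TYMS, thymidylate synthase, changed by 0.13 (SE 0.042) over untreated and 0.19 (SE 0.042) over GSK-484 cells, with fractional counts from shared reads in all 9 libraries and 967 bases of exon in common with the antisense gene ENOSF1, so it is uncertain. With the GC trend removed, TYMS was not called over untreated cells.

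Of 23 mitosis genes, 4 rose and 2 fell over untreated cells, 3 rose over GSK-484 cells, and PLK1, the kinase of mitotic entry, rose in both, with 0.16 (SE 0.036) over untreated and 0.17 (SE 0.036) over GSK-484 cells. Over untreated cells 17.3% of all genes were higher and 14.5% lower, so the mitosis counts there lay near or below the background before GC trend removal. After it, 7 rose and none fell, against 5.72% and 6.05% of all genes, with a median of 0.088. Over GSK-484 cells 11 were higher and none lower at an unadjusted p under 0.05, against 7.44% and 7.77% of all genes. DESeq2 called 7 higher and none lower there. The PLK1 call over untreated cells was lost with the GC trend removed (0.023, edgeR adjusted p = 0.757). The median of the mitosis list was -0.0031 over untreated and 0.092 over GSK-484 cells. HAUS8, a subunit of the augmin complex that nucleates spindle microtubules (chr19:17049729-17075625), had 18.7, 18.7 and 17.8 CPM in TP-472 libraries, against 14.7, 13.6 and 14.3 CPM in GSK-484 libraries and 12.5, 13.3 and 14.7 CPM in untreated libraries. It lay above both groups without overlap, changed by 0.45 (SE 0.067) over untreated cells, with an edgeR adjusted p of 6.44e-05, and 0.37 (SE 0.067) over GSK-484 cells, with an edgeR adjusted p of 0.00364, and kept both calls throughout.

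Enzymes and transporters that supply amino acids, many of them targets of the transcription factor ATF4, also held calls in both comparisons. ATF4 is translated when amino acids are short or the endoplasmic reticulum is stressed, and it raises genes of serine synthesis, asparagine synthesis and amino acid uptake. Of 11 enzymes of serine and folate-bound carbon metabolism, 6 rose and none fell over untreated cells, 4 rose and none fell over GSK-484 cells, and PHGDH, SHMT2 and PSAT1 rose in both. None of the 11 was lower at an unadjusted p under 0.05 or by DESeq2 in either comparison. Of 17 ATF4 stress response genes, 10 rose and none fell over untreated cells (11 higher and none lower at an unadjusted p under 0.05, 10 and none by DESeq2). Over GSK-484 cells 3 rose and 1 fell, and CHAC1 and ASNS rose in both. Of 11 amino acid transporters, 4 rose and 2 fell over untreated cells, and SLC1A4, SLC1A5 and SLC7A5 rose in both comparisons. The medians over untreated cells were 0.081, 0.19 and 0.15 for the enzymes, the ATF4 genes and the transporters, and over GSK-484 cells 0.096, 0.12 and 0.070. With the GC trend removed, 5, 8 and 3 members rose and 0, 1 and 0 fell. The medians over untreated cells were then 0.13, 0.11 and 0.021, against 0.0057 over all genes. Over GSK-484 cells, the higher calls ran from 0 to 4 in each of these 3 lists over the 14 alternatives.

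CHAC1, which degrades glutathione (chr15:40952962-40956519), had 26.5, 27.995 and 28.1 CPM in TP-472 libraries, against 23.0, 22.0 and 22.2 CPM in GSK-484 libraries and 19.4, 19.4 and 18.1 CPM in untreated libraries. The 3 groups did not overlap, with TP-472 highest and untreated lowest. CHAC1 changed by 0.54 (SE 0.057) over untreated cells, with an edgeR adjusted p of 3.88e-06, and 0.30 (SE 0.057) over GSK-484 cells, with an edgeR adjusted p of 0.00667, with the second call lost without TP-472 replicate 3 and with the 2 groups alone. CHAC1 had 0.30 over untreated cells after GC trend removal. ASNS, asparagine synthetase (chr7:97852118-97872542), had 239, 227 and 237 CPM in TP-472 libraries, against 216, 199 and 207 CPM in GSK-484 libraries and 191, 192 and 206 CPM in untreated libraries. All TP-472 libraries exceeded all others. Its log2 fold change was 0.26 (SE 0.038) over untreated cells, with an edgeR adjusted p of 6.43e-05, and 0.18 (SE 0.038) over GSK-484 cells, with an edgeR adjusted p of 0.0163, and the second call was lost without TP-472 replicate 1 or 3 or GSK-484 replicate 2 or 3 and with the 2 groups alone. ATF4 itself, noted after its values were seen, had 622, 652 and 659 CPM in TP-472 libraries, against 616, 584 and 576 CPM in GSK-484 libraries and 532, 559 and 590.1 CPM in untreated libraries. The ATF4 transcript rose over untreated cells (0.20) and was not called over GSK-484 cells (0.12), where the groups did not overlap. GDF15, a secreted stress cytokine in this list, was the member lower over GSK-484 cells (-0.99), with -0.45 over untreated cells, which did not pass.

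PHGDH, the entry enzyme of serine synthesis (chr1:119648411-119744226), had 382, 389.7 and 395 CPM in TP-472 libraries, against 375, 330.4 and 324 CPM in GSK-484 libraries and 289, 308 and 310.3 CPM in untreated libraries. TP-472 was highest in every library, and PHGDH changed by 0.36 (SE 0.047) over untreated and 0.18 (SE 0.047) over GSK-484 cells, with the second call lost in 7 of 14 alternatives, among them the fit without any 1 of the TP-472 libraries. PSAT1, the next enzyme of that pathway, had 413, 413 and 412 CPM in TP-472 libraries, against 368, 361 and 369 CPM in GSK-484 libraries and 387, 384 and 400.1 CPM in untreated libraries. Its GSK-484 libraries were the lowest, and the call over untreated cells (0.081, and 0.17 after GC trend removal) was lost in 9 of 14 alternatives, among them each fit without 1 of the TP-472 libraries. SHMT2, the mitochondrial enzyme that splits serine, changed by 0.23 (SE 0.032) over untreated and 0.13 (SE 0.032) over GSK-484 cells, with 0.10 over untreated cells after GC trend removal and the second call lost without TP-472 replicate 2 or 3 or GSK-484 replicate 3 and with no filter or the 2 groups alone. SLC1A4, a carrier of neutral amino acids including serine, had 39.6, 40.6 and 42.2 CPM in TP-472 libraries, against 33.6, 37.3 and 33.5 CPM in GSK-484 libraries and 33.3, 33.8 and 32.4 CPM in untreated libraries. It did not overlap the other groups and changed by 0.30 (SE 0.049) over untreated and 0.23 (SE 0.049) over GSK-484 cells, with the second call lost without TP-472 replicate 2 or 3 or GSK-484 replicate 3 and with the 2 groups alone. SLC1A5, a glutamine carrier, changed by 0.29 (SE 0.037) over untreated and 0.15 (SE 0.037) over GSK-484 cells, with 0.083 over untreated cells after GC trend removal, and the second call was lost without TP-472 replicate 2 or 3 or GSK-484 replicate 2 or 3 and with no filter or the 2 groups alone. SLC7A5, the light chain of the leucine exchanger, changed by 0.29 (SE 0.039) over untreated and 0.17 (SE 0.039) over GSK-484 cells. SLC7A5 had fractional counts in 8 of 9 libraries and was not called over untreated cells with the GC trend removed (0.076, edgeR adjusted p = 0.135). Its second call was lost without TP-472 replicate 2 or 3 or GSK-484 replicate 3 and with the 2 groups alone. SLC38A2 (-0.24) and SLC38A1 (-0.16) were the 2 transporters that fell over untreated cells, and neither was called over GSK-484 cells.

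Cytosolic tRNA synthetases, also under ATF4 in part, rose over untreated cells in 10 of 20 cases, with none lower by edgeR, by DESeq2 or at an unadjusted p under 0.05. None was called over GSK-484 cells by edgeR in either direction, where 4 were higher and 1 lower at an unadjusted p under 0.05 and DESeq2 called 1 higher. The median over untreated cells was 0.090 and over GSK-484 cells 0.044. With the GC trend removed, 10 rose and none fell over untreated cells, with a median of 0.083, against 0.0057 over all genes.

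The binding element of ATF4 dimers with C/EBP factors has the letters TGATGNAA, and it was searched in the same promoters on both strands. It occurred in 3.19% of 27305 promoters, in 1.54% of the 11790 promoters of tested genes and in 6 of 47 (12.8%) of the promoters of the 4 amino acid lists. Of the 7 among those that rose in both comparisons, 2 held it, and they are shown with the element in capitals, 5′ to 3′ on the strand of the gene (RefSeq, GRCh38.p14). The CHAC1 window is chr15:40953221-40953470 on the plus strand, with the match starting 209 bases before the gene start and reading on the opposite strand. The ASNS window is chr7:97872409-97872658 on the minus strand, with the match starting 68 bases before the gene start.
CHAC1: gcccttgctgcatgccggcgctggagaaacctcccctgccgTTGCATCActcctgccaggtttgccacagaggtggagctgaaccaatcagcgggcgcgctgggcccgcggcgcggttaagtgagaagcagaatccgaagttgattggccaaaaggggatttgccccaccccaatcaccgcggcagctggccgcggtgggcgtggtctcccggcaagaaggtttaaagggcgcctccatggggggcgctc
ASNS: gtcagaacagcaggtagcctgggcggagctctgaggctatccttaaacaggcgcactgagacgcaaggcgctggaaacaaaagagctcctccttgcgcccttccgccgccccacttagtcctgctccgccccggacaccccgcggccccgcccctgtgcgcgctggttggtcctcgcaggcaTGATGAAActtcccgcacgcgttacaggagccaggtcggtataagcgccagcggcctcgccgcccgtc
The other 4 promoters with the element were those of AARS, ATF3, IARS and MTHFD1L, and none of these genes was called in both comparisons.

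The lists of extracellular matrix genes and of apoptosis genes were also chosen in knowledge of the theme of the published study. The matrix is the mesh of collagens and glycoproteins outside the cell, stiffened by lysyl oxidases and cut by proteases, and cells hold it through integrins. Of 14 cross-linking and collagen-modifying enzymes, 4 rose and 5 fell over untreated cells, and none rose and 4 fell over GSK-484 cells (none higher and 5 lower at an unadjusted p under 0.05, none and 5 by DESeq2). LOX, LOXL3 and LOXL4, the 3 lysyl oxidases that fell, fell in both comparisons. LOXL2, another lysyl oxidase, rose over untreated cells (0.10) and was not called over GSK-484 cells (-0.026). None of the list rose and 5 fell when the GC trend was removed. SERPINH1, the collagen chaperone, fell over GSK-484 cells (-0.24) and had a value of 0.0098 over untreated cells.

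LOX, which oxidises lysines of collagen and elastin (chr5:122063195-122078360), had 97.0, 90.0 and 92.4 CPM in TP-472 libraries, against 107, 116 and 119 CPM in GSK-484 libraries and 124, 114 and 120.2 CPM in untreated libraries. Every TP-472 library was below every other. LOX changed by -0.36 (SE 0.043) over untreated cells, with an edgeR adjusted p of 1.45e-05, and -0.29 (SE 0.043) over GSK-484 cells, with an edgeR adjusted p of 6.80e-04, with -0.23 over untreated cells after GC trend removal. LOXL4 (chr10:98247690-98268250), at a low level, had 8.29, 8.25 and 8.26 CPM in TP-472 libraries, against 10.4, 12.1 and 12.4 CPM in GSK-484 libraries and 10.1, 11.5 and 10.2 CPM in untreated libraries. Its 3 TP-472 libraries were nearly equal and lowest, and the changes were -0.35 (SE 0.074) over untreated cells, with an edgeR adjusted p of 0.00109, and -0.49 (SE 0.074) over GSK-484 cells, with an edgeR adjusted p of 6.80e-04. LOXL3 (chr2:74532414-74555690) had 129, 127 and 129 CPM in TP-472 libraries, against 162, 170.1 and 163 CPM in GSK-484 libraries and 141, 148 and 155 CPM in untreated libraries. The order was TP-472 lowest and GSK-484 highest, with changes of -0.21 (SE 0.035) over untreated cells, with an edgeR adjusted p of 2.21e-04, and -0.36 (SE 0.035) over GSK-484 cells, with an edgeR adjusted p of 9.37e-06. GC trend removal gave -0.34 for LOXL3 over untreated cells. All 3 genes kept both calls under all 14 alternatives, but LOXL3 had fractional counts in all 9 libraries and shares 625 exon bases with the opposite-strand gene HTRA2, so it is uncertain.

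Among 22 matrix proteases and their inhibitors, 3 rose and 10 fell over untreated cells, and 1 rose and 5 fell over GSK-484 cells. PLAU rose in both, and ADAMTS6, TIMP3 and ADAMTS1 were among the members that fell in both. PLAU, the urokinase that activates plasminogen (chr10:73909177-73917497), had 5.58, 5.88 and 5.68 CPM in TP-472 libraries, against 3.21, 3.25 and 3.51 CPM in GSK-484 libraries and 2.91, 3.26 and 3.27 CPM in untreated libraries. The TP-472 libraries stood well apart from the other 6. PLAU changed by 0.86 (SE 0.10) over untreated cells, with an edgeR adjusted p of 1.29e-05, and 0.78 (SE 0.10) over GSK-484 cells, with an edgeR adjusted p of 1.89e-04, and it kept both calls under all 14 alternatives. Its counts were fractional in 5 of 9 libraries, and 916 exon bases are shared with the antisense gene C10orf55, so it is uncertain. ADAMTS6, a secreted metalloprotease, had 149.8, 148 and 142 CPM in TP-472 libraries, against 158, 166 and 171 CPM in GSK-484 libraries and 183, 171 and 174 CPM in untreated libraries, and changed by -0.26 (SE 0.036) over untreated and -0.17 (SE 0.036) over GSK-484 cells, with -0.17 over untreated cells after GC trend removal and the second call lost without TP-472 replicate 2 or 3 or GSK-484 replicate 3 and with total-count scaling or the 2 groups alone. TIMP3, an inhibitor bound to the matrix, changed by -0.23 (SE 0.046) over untreated and -0.21 (SE 0.047) over GSK-484 cells. ADAMTS1, a protease of proteoglycans, changed by -0.18 (SE 0.041) over untreated and -0.18 (SE 0.041) over GSK-484 cells. The call over GSK-484 cells was lost for TIMP3 without TP-472 replicate 3 or GSK-484 replicate 3 and with total-count scaling or the 2 groups alone, and for ADAMTS1 without TP-472 replicate 1 or 3 or GSK-484 replicate 2 and with total-count scaling or the 2 groups alone. MMP16, a membrane protease, had the largest fall of the list to pass over untreated cells (-0.78) and was not called over GSK-484 cells (-0.20).

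Of 20 matricellular proteins and matrix glycoproteins, 2 rose and 5 fell over untreated cells, and none rose and 3 fell over GSK-484 cells (none higher and 6 lower at an unadjusted p under 0.05, none and 4 by DESeq2). CTGF, THBS1 and CYR61 fell in both. CTGF and CYR61 are also the usual reporters of YAP and TEAD, the factors that respond to cell tension. Of 19 YAP and TEAD genes, 2 rose and 8 fell over untreated cells, 3 fell over GSK-484 cells, and the median was -0.076 and -0.083. In the comparison without the GC trend, 1 rose and 10 fell. CTGF, a matricellular growth factor binder (chr6:131948176-131951373), had 153, 150.3 and 152 CPM in TP-472 libraries, against 185, 184 and 184 CPM in GSK-484 libraries and 197, 199 and 198 CPM in untreated libraries. Replicates lay close together in each group, and no groups overlapped. CTGF changed by -0.39 (SE 0.031) over untreated cells, with an edgeR adjusted p of 1.28e-07, and -0.28 (SE 0.031) over GSK-484 cells, with an edgeR adjusted p of 3.17e-05, and it kept both calls under all 14 alternatives. CYR61, its relative, had 683, 699 and 700.3 CPM in TP-472 libraries, against 796, 795 and 788 CPM in GSK-484 libraries and 753, 789.7 and 779 CPM in untreated libraries. TP-472 was lowest in every library, with changes of -0.16 (SE 0.028) over untreated cells, with an edgeR adjusted p of 2.89e-04, and -0.19 (SE 0.028) over GSK-484 cells, with an edgeR adjusted p of 5.16e-04. THBS1, thrombospondin, had 530.0, 532 and 516 CPM in TP-472 libraries, against 553, 613 and 639 CPM in GSK-484 libraries and 649.9, 620.0 and 595 CPM in untreated libraries. It did not overlap either group, changed by -0.24 (SE 0.045) over untreated and -0.19 (SE 0.045) over GSK-484 cells, and lost the call over GSK-484 cells without TP-472 replicate 1, 2 or 3 or GSK-484 replicate 2 or 3 and with total-count scaling or the 2 groups alone. YAP1 (-0.29) and TEAD1 (-0.28) fell over untreated cells and were not called over GSK-484 cells.

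Integrins are the receptors for the matrix. Of 14 subunits, 4 rose and 8 fell over untreated cells, and none rose and 7 fell when the GC trend was removed, against 6.05% of all genes lower. Over GSK-484 cells 1 fell, against 1.18% of all genes, and ITGB8 fell in both. ITGB8, which activates latent TGF-beta (chr7:20330702-20415754), had 220.0, 206 and 193 CPM in TP-472 libraries, against 235, 259.8 and 269 CPM in GSK-484 libraries and 324, 280.5 and 267 CPM in untreated libraries. The TP-472 libraries were lowest, with changes of -0.50 (SE 0.061) over untreated cells, with an edgeR adjusted p of 1.74e-05, and -0.30 (SE 0.061) over GSK-484 cells, with an edgeR adjusted p of 0.00986. Its counts were fractional in all 9 libraries, and it lost the second call without TP-472 replicate 3 or GSK-484 replicate 3. ITGB1, the most common beta subunit, fell over untreated cells (-0.21) and had a value of -0.051 over GSK-484 cells that did not pass. Of 18 collagen chains, 4 rose and 1 fell over untreated cells, and none rose and 2 fell over GSK-484 cells, COL16A1 (-0.53) and COL7A1 (-0.37), so that no collagen was called in both. None of the 18 was higher over GSK-484 cells at an unadjusted p under 0.05 or by DESeq2. With the GC trend removed, none rose and 5 fell over untreated cells. SDC1, a heparan sulfate proteoglycan, was the member of the 19 laminin and basement membrane genes that fell in both, with -0.11 (SE 0.038) over untreated and -0.18 (SE 0.038) over GSK-484 cells. SDC1 had -0.30 over untreated cells after GC trend removal, and its call over untreated cells was lost without TP-472 replicate 1 or 2 or untreated replicate 2 and with the 2 groups alone, and that over GSK-484 cells without TP-472 replicate 1 and with the 2 groups alone.

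Genes controlled by p53, the stress-activated tumour suppressor, split. Of 20 tested, 6 rose and 6 fell over untreated cells, none rose and 3 fell over GSK-484 cells (none higher and 6 lower at an unadjusted p under 0.05, none and 4 by DESeq2). With the GC trend removed, none rose and 6 fell over untreated cells. TP53INP1, ZMAT3 and SESN1 fell in both. TP53INP1, which promotes cell death and autophagy (chr8:94925972-94949411), had 42.8, 39.1 and 37.0 CPM in TP-472 libraries, against 47.3, 51.9 and 52.0 CPM in GSK-484 libraries and 57.9, 51.6 and 52.8 CPM in untreated libraries. No TP-472 library reached another group. TP53INP1 changed by -0.45 (SE 0.058) over untreated cells, with an edgeR adjusted p of 1.98e-05, and -0.35 (SE 0.058) over GSK-484 cells, with an edgeR adjusted p of 0.00246, and it kept both calls under all 14 alternatives. ZMAT3, an RNA-binding protein, had 100.5, 90.0 and 93.0 CPM in TP-472 libraries, against 109, 110.4 and 119 CPM in GSK-484 libraries and 131, 125 and 123 CPM in untreated libraries. It was also lowest with TP-472 in every library, changed by -0.42 (SE 0.044) over untreated cells, with an edgeR adjusted p of 3.29e-06, and -0.26 (SE 0.044) over GSK-484 cells, with an edgeR adjusted p of 0.00246, and lost the second call with the 2 groups alone. SESN1, a sensor in nutrient signalling, changed by -0.31 (SE 0.069) over untreated and -0.26 (SE 0.069) over GSK-484 cells, and lost the second call in 10 of 14 alternatives, including each fit without 1 library. CDKN1A, the p53 target that arrests the cell cycle, noted after its values were seen, had 359, 376 and 377 CPM in TP-472 libraries, against 416, 384 and 374 CPM in GSK-484 libraries and 349.8, 364 and 385 CPM in untreated libraries, and it was not called in either comparison (0.016 and -0.078).

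Of 11 anti-apoptotic genes, none rose and 6 fell over untreated cells, the largest being BIRC6 (-0.34), XIAP (-0.29) and BIRC2 (-0.28). None was called over GSK-484 cells with edgeR, where 3 were lower and none higher at an unadjusted p under 0.05 and DESeq2 called 2 lower. The median was -0.14 over untreated and -0.065 over GSK-484 cells. Of 18 pro-apoptotic genes, 5 rose and 3 fell over untreated cells, and 1 fell over GSK-484 cells, BMF (-0.22), with medians of 0.0070 and 0.019. Among all genes, 17.3% were higher and 14.5% lower over untreated cells, and 1.18% were lower over GSK-484 cells. With the GC trend removed, no anti-apoptotic gene rose and 5 fell over untreated cells, with a median of -0.11. Of the pro-apoptotic genes 1 rose and none fell then, against 5.72% and 6.05% of all genes. No apoptosis gene of these 2 lists was called in both comparisons.

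Lipid and endoplasmic reticulum genes held a few falls. Of 21 cholesterol synthesis and uptake genes, 7 rose and 6 fell over untreated cells, 2 fell over GSK-484 cells, and INSIG1 was among those that fell in both. INSIG1, which retains the sterol sensor in the endoplasmic reticulum (chr7:155297776-155310235), had 35.1, 33.0 and 35.6 CPM in TP-472 libraries, against 43.0, 40.3 and 42.3 CPM in GSK-484 libraries and 42.8, 38.8 and 44.7 CPM in untreated libraries. TP-472 was lowest, the changes were -0.29 (SE 0.051) over untreated cells, with an edgeR adjusted p of 3.07e-04, and -0.28 (SE 0.051) over GSK-484 cells, with an edgeR adjusted p of 0.00471, and both calls held under all 14 alternatives. SCD, the enzyme that makes monounsaturated fatty acids, noted after its values were seen, had 327, 329.9 and 323 CPM in TP-472 libraries, against 384, 403 and 394 CPM in GSK-484 libraries and 417, 403 and 387 CPM in untreated libraries. It changed by -0.30 (SE 0.037) over untreated cells, with an edgeR adjusted p of 1.74e-05, and -0.27 (SE 0.037) over GSK-484 cells, with an edgeR adjusted p of 3.37e-04, with both calls kept throughout. ABCA1, which exports cholesterol, had 97.3, 88.8 and 83.5 CPM in TP-472 libraries, against 102, 115 and 116 CPM in GSK-484 libraries and 137, 118 and 114 CPM in untreated libraries. All TP-472 libraries were below the others, and ABCA1 changed by -0.45 (SE 0.066) over untreated and -0.30 (SE 0.067) over GSK-484 cells, with the second call lost without TP-472 replicate 2 or 3 or GSK-484 replicate 2 or 3 and with the 2 groups alone.

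Of 18 endoplasmic reticulum chaperones and unfolded protein response genes, 1 rose and 8 fell over untreated cells, and none rose and 2 fell over GSK-484 cells (none higher and 6 lower at an unadjusted p under 0.05, none and 3 by DESeq2). After GC trend removal 1 rose and 3 fell over untreated cells. CANX, the lectin chaperone, and HSPA5, the main chaperone of the lumen, fell in both. CANX changed by -0.24 (SE 0.037) over untreated and -0.16 (SE 0.037) over GSK-484 cells, with -0.14 over untreated cells after GC trend removal, and the second call was lost without TP-472 replicate 2 or 3 or GSK-484 replicate 3 and with total-count scaling or the 2 groups alone. HSPA5 had 1265, 1246 and 1281 CPM in TP-472 libraries, against 1542, 1395 and 1394 CPM in GSK-484 libraries and 1362, 1371 and 1372 CPM in untreated libraries, with changes of -0.11 (SE 0.033) over untreated and -0.19 (SE 0.033) over GSK-484 cells. TP-472 was lowest in every library for HSPA5, and its call over untreated cells was lost with the GC trend removed (-0.074, edgeR adjusted p = 0.166). Among 24 glycolysis and hypoxia genes, 12 rose and 1 fell over untreated cells, and over GSK-484 cells none rose and 1 fell, with 6 higher and 2 lower at an unadjusted p under 0.05 and 1 and 1 by DESeq2. After GC trend removal 3 rose and 2 fell over untreated cells. The gene that fell in both was ADM, a vasodilator peptide raised in hypoxia, with -0.17 (SE 0.061) over untreated and -0.25 (SE 0.061) over GSK-484 cells. The ADM call over untreated cells was lost without TP-472 replicate 1, 2 or 3 or untreated replicate 2 or 3 and with the replicate block, and that over GSK-484 cells without TP-472 replicate 1, 2 or 3 or GSK-484 replicate 1 and with total-count scaling or the 2 groups alone. Its value over untreated cells was -0.33 after GC trend removal.

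**Figure D3:**
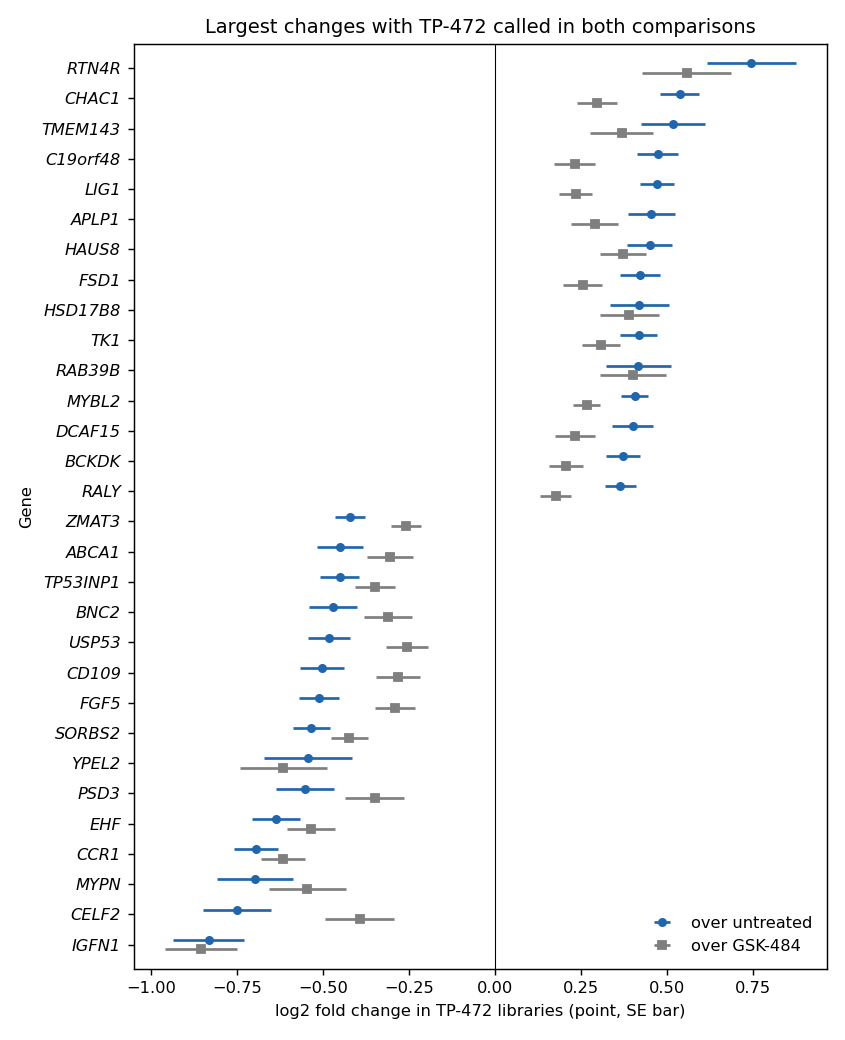
The 15 largest rises and 15 largest falls with TP-472 that were called in both comparisons and passed the naming rule, as log2 fold change (x axis) over untreated (blue circles) and GSK-484 cells (grey squares), with bars of 1 SE. Both points of a gene lie on the same side of 0, as the naming rule required. The values run from 0.75 for RTN4R over untreated cells to -0.85 for IGFN1 over GSK-484 cells.

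The largest falls named by the rule were those of IGFN1, CELF2, MYPN, CCR1 and EHF. They were ranked among 82 genes that fell, and the rises among 48 that rose, in both comparisons and with the GC trend removed, without group overlap and with whole counts. IGFN1, a protein first described in skeletal muscle (chr1:201190825-201228952), had 8.42, 9.01 and 8.26 CPM in TP-472 libraries, against 15.3, 17.0 and 14.2 CPM in GSK-484 libraries and 17.4, 15.6 and 12.8 CPM in untreated libraries. It was about as high in GSK-484 as in untreated libraries and lowest with TP-472, and it changed by -0.83 (SE 0.10) over untreated cells, with an edgeR adjusted p of 1.74e-05, and -0.85 (SE 0.10) over GSK-484 cells, with an edgeR adjusted p of 8.24e-05. CCR1, a receptor for inflammatory chemokines (chr3:46201709-46208396), had 16.7, 14.6 and 14.8 CPM in TP-472 libraries, against 22.0, 23.8 and 24.7 CPM in GSK-484 libraries and 23.3, 25.9 and 25.4 CPM in untreated libraries. Every TP-472 library was below the others, and CCR1 changed by -0.69 (SE 0.063) over untreated cells, with an edgeR adjusted p of 1.05e-06, and -0.62 (SE 0.064) over GSK-484 cells, with an edgeR adjusted p of 1.68e-05. EHF, an ETS transcription factor of epithelia (chr11:34621093-34661057), had 20.8, 19.8 and 20.8 CPM in TP-472 libraries, against 29.1, 28.7 and 31.0 CPM in GSK-484 libraries and 33.5, 29.6 and 32.0 CPM in untreated libraries. The change was -0.64 (SE 0.070) over untreated cells, with an edgeR adjusted p of 6.28e-06, and -0.53 (SE 0.071) over GSK-484 cells, with an edgeR adjusted p of 1.89e-04. SORBS2, an adaptor of actin fibres and cell junctions (chr4:185585444-185956652), had 19.0, 19.7 and 18.4 CPM in TP-472 libraries, against 24.0, 26.0 and 26.7 CPM in GSK-484 libraries and 28.5, 28.5 and 25.7 CPM in untreated libraries. It changed by -0.53 (SE 0.053) over untreated cells, with an edgeR adjusted p of 2.54e-06, and -0.42 (SE 0.053) over GSK-484 cells, with an edgeR adjusted p of 1.19e-04. All 4 genes kept both calls under all 14 alternatives.

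**Figure D4:**
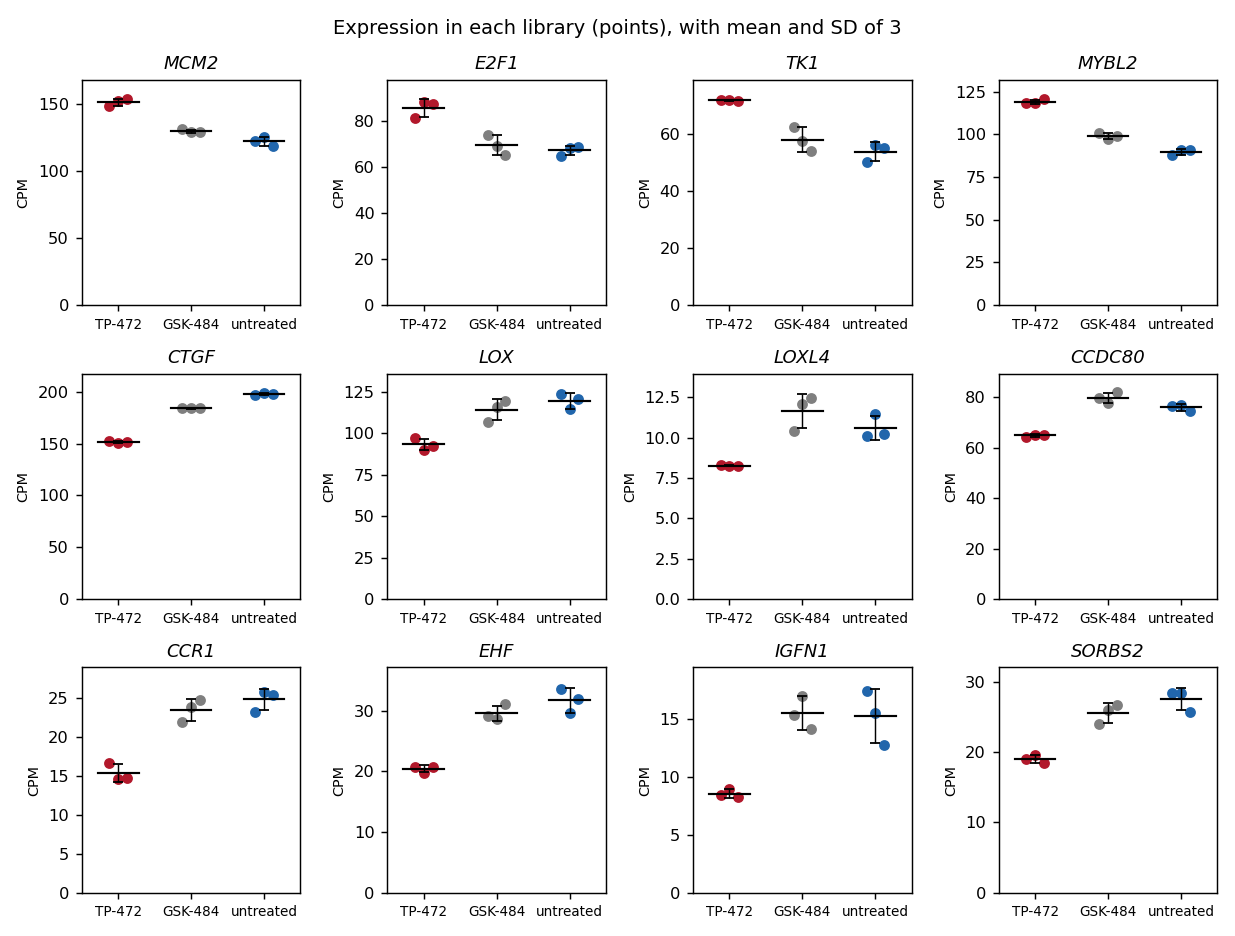
CPM (y axis, from 0) in each of the 3 libraries (points) of TP-472, GSK-484 and untreated cells for 12 genes, with the mean (line) and SD (bar). MCM2, E2F1, TK1 and MYBL2 are highest with TP-472, and the other 8 genes are lowest with TP-472.

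Other falls were CELF2, an RNA-binding splicing regulator, with 5.29, 4.87 and 4.99 CPM in TP-472 libraries, against 5.32, 7.48 and 7.12 CPM in GSK-484 libraries and 8.66, 7.90 and 8.85 CPM in untreated libraries. TP-472 replicate 1 and GSK-484 replicate 1 were close, and the changes were -0.75 (SE 0.098) over untreated and -0.39 (SE 0.10) over GSK-484 cells, with the second call lost in 8 of 14 alternatives, including each fit without 1 of the TP-472 libraries. MYPN, a protein of the muscle sarcomere, had 3.34, 4.06 and 4.01 CPM in TP-472 libraries, against 5.52, 5.66 and 5.51 CPM in GSK-484 libraries and 6.68, 6.42 and 5.41 CPM in untreated libraries, and changed by -0.70 (SE 0.11) over untreated and -0.55 (SE 0.11) over GSK-484 cells. FGF5, a secreted growth factor, had 49.5, 46.0 and 46.0 CPM in TP-472 libraries, against 54.5, 58.4 and 59.9 CPM in GSK-484 libraries and 73.2, 65.2 and 62.8 CPM in untreated libraries, and was the member of 19 tested receptor tyrosine kinases and ligands that fell in both, with -0.51 (SE 0.058) over untreated and -0.29 (SE 0.058) over GSK-484 cells. CD109, a co-receptor that dampens TGF-beta signalling, had 167, 157 and 152 CPM in TP-472 libraries, against 179, 202 and 199 CPM in GSK-484 libraries and 253, 219.6 and 202 CPM in untreated libraries. Untreated replicate 1 was the highest library for CD109 and for FGF5, and CD109 changed by -0.50 (SE 0.063) over untreated and -0.28 (SE 0.063) over GSK-484 cells. PSD3, an exchange factor for ARF6, changed by -0.55 (SE 0.085) over untreated and -0.35 (SE 0.085) over GSK-484 cells. BNC2, a zinc finger protein linked to skin pigmentation, changed by -0.47 (SE 0.069) over untreated and -0.31 (SE 0.069) over GSK-484 cells. YPEL2 changed by -0.54 (SE 0.13) over untreated and -0.61 (SE 0.13) over GSK-484 cells. USP53 changed by -0.48 (SE 0.060) over untreated and -0.25 (SE 0.061) over GSK-484 cells, and the 15 were completed by ABCA1, TP53INP1 and ZMAT3. CELF2, MYPN, FGF5, CD109, PSD3, BNC2, YPEL2 and USP53 kept the call over untreated cells under all 14 alternatives. The call over GSK-484 cells was lost for FGF5 without TP-472 replicate 2 or 3 or GSK-484 replicate 3, for CD109 and BNC2 without TP-472 replicate 2 or 3 or GSK-484 replicate 2 or 3, for MYPN without TP-472 replicate 1 and with the 2 groups alone, and for YPEL2 without TP-472 replicate 3 and with the 2 groups alone. It was lost for PSD3 without TP-472 replicate 1, 2 or 3 or GSK-484 replicate 2 or 3, and for USP53 without TP-472 replicate 2 or 3 or GSK-484 replicate 2 or 3 and with total-count scaling or the 2 groups alone. USP53 had -0.30 over untreated cells after GC trend removal.

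Among the rises, RTN4R, the Nogo receptor that limits axon growth (chr22:20241415-20283246), had 4.09, 4.84 and 4.12 CPM in TP-472 libraries, against 2.65, 3.39 and 2.86 CPM in GSK-484 libraries and 2.33, 2.88 and 2.62 CPM in untreated libraries. TP-472 libraries were highest, at a low level, and RTN4R changed by 0.75 (SE 0.13) over untreated cells, with an edgeR adjusted p of 2.53e-04, and 0.56 (SE 0.13) over GSK-484 cells, with an edgeR adjusted p of 0.0235, with the second call lost without TP-472 replicate 2 or 3 or GSK-484 replicate 1 or 3 and with the 2 groups alone. RTN4R had 0.47 over untreated cells after GC trend removal. It was the only member of 27 axon guidance genes called in both. APLP1, a relative of the amyloid precursor protein, had 21.3, 23.2 and 21.02 CPM in TP-472 libraries, against 18.6, 17.6 and 17.4 CPM in GSK-484 libraries and 14.4, 15.7 and 17.8 CPM in untreated libraries, and changed by 0.46 (SE 0.069) over untreated and 0.29 (SE 0.069) over GSK-484 cells. DCAF15, a substrate receptor of a ubiquitin ligase, changed by 0.40 (SE 0.059) over untreated and 0.23 (SE 0.058) over GSK-484 cells. BCKDK, the kinase that restrains breakdown of branched-chain amino acids, changed by 0.37 (SE 0.049) over untreated and 0.21 (SE 0.049) over GSK-484 cells. RALY, an RNA-binding protein of the hnRNP family, changed by 0.37 (SE 0.045) over untreated and 0.18 (SE 0.045) over GSK-484 cells. FSD1, which binds microtubules, changed by 0.42 (SE 0.058) over untreated and 0.26 (SE 0.057) over GSK-484 cells. The other rises of the 15 beside those described above were in TMEM143 (0.52 over untreated and 0.37 over GSK-484 cells), C19orf48 (0.47 and 0.23), HSD17B8 (0.42 and 0.39) and RAB39B (0.42 and 0.40). The call over GSK-484 cells was lost in 5 of 14 alternatives by APLP1, DCAF15, BCKDK, FSD1, HSD17B8 and RAB39B, and in 6 by RALY, TMEM143 and C19orf48. For all 9 these included the 2 groups alone and leaving out TP-472 replicate 3, for all but RAB39B TP-472 replicate 2, for all but FSD1 GSK-484 replicate 2, and for all but TMEM143 GSK-484 replicate 3. Over untreated cells, GC trend removal gave 0.21 for APLP1, 0.17 for DCAF15, 0.17 for BCKDK, 0.21 for FSD1, 0.25 for HSD17B8, 0.34 for TMEM143 and 0.31 for C19orf48, and each was still called. Transcript GC content of the 15 rises was 43.6% for RAB39B and ran from 53% for HAUS8 to 69.5% for RTN4R in the rest. That of the 15 falls was 56.8% for IGFN1 and ran from 34.5% for USP53 to 47.8% for MYPN in the rest. The genes were ranked by the change over untreated cells before GC trend removal, and the part of the trend in this ranking was not tested.

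Signalling and cytoskeleton lists had few calls in both comparisons. Among all genes, 17.3% were higher and 14.5% lower over untreated cells, and 0.89% and 1.18% over GSK-484 cells. Of 18 MAPK output genes, 4 rose and 4 fell over untreated cells, 2 rose and 1 fell over GSK-484 cells, and FOSL1 rose in both. FOSL1, an AP-1 subunit induced by MAPK signalling, changed by 0.24 (SE 0.039) over untreated and 0.16 (SE 0.038) over GSK-484 cells. It lost the call over untreated cells with GC trend removal or the block and GC trend removal (0.052 with GC trend removal), and that over GSK-484 cells without TP-472 replicate 2 or 3 or GSK-484 replicate 1 and with total-count scaling, GC trend removal or the 2 groups alone. Of 22 focal adhesion and actin linker genes, 5 rose and 2 fell over untreated cells, 1 fell over GSK-484 cells, and TPM1 fell in both. TPM1, a tropomyosin that coats actin filaments, changed by -0.14 (SE 0.035) over untreated and -0.16 (SE 0.035) over GSK-484 cells. It lost the call over untreated cells with GC trend removal or the block and GC trend removal, and that over GSK-484 cells without TP-472 replicate 1 or 2 or GSK-484 replicate 3 and with total-count scaling or the 2 groups alone.

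Several lists had no call over GSK-484 cells, where 2.06% of all genes were called, against 31.8% over untreated cells, so few or no calls in lists of this size lie near the background. Of 26 SWI/SNF subunits, the complex that holds BRD9 and BRD7, 10 rose and 2 fell over untreated cells, and 2 rose and 1 fell after GC trend removal. None was called over GSK-484 cells with edgeR or DESeq2, where 3 were higher and 2 lower at an unadjusted p under 0.05. Of 21 lysosome genes, 9 rose and 3 fell over untreated cells, and 2 rose and 2 fell after GC trend removal. None was called over GSK-484 cells with edgeR (2 higher and 2 lower at an unadjusted p under 0.05, 1 lower by DESeq2). Of 22 interferon-stimulated genes, 5 rose and 1 fell over untreated cells, and 1 rose and none fell after GC trend removal. None was called over GSK-484 cells with edgeR or DESeq2 (1 higher and 3 lower at an unadjusted p under 0.05). Of 21 inflammatory cytokines and NF-kB targets, 4 rose and 3 fell over untreated cells, and 1 rose and 2 fell after GC trend removal. Over GSK-484 cells none was called with either tool (4 higher and 1 lower at an unadjusted p under 0.05). Of 12 MYC network genes, 3 rose and 2 fell over untreated cells, and none rose and 1 fell after GC trend removal. Over GSK-484 cells none was called with edgeR (none higher and 2 lower at an unadjusted p under 0.05, 1 lower by DESeq2). A difference that passes in 1 comparison and not in the other is not shown to differ between them, and the difference between the 2 comparisons is that of GSK-484 and untreated cells, which was not tested here.

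The genes least sensitive to the choice of comparison and processing were 27 that kept both calls under the 14 recomputed alternatives of each comparison, 10 higher and 17 lower. The 1.2-fold minimum was not among these 14, and under it 3 genes remained in both, as given above. All 27 were also called in the same direction against the mean of the GSK-591, GSK-484, MS023 and UNC0642 groups, which shares the TP-472 libraries. That mean also includes GSK-484, over which the genes were selected, so this result was partly set by the selection. Of them, 16 are named by the rule and described above. The other 11 were noted after their values were seen. Among them KRT15, a keratin of basal epithelia, rose by 0.49 (SE 0.051) over untreated and 0.30 (SE 0.051) over GSK-484 cells. RAB11B, a GTPase of recycling endosomes, rose by 0.52 (SE 0.052) over untreated and 0.31 (SE 0.052) over GSK-484 cells, with 0.27 over untreated cells after GC trend removal. TCF19, a factor of the cell cycle, rose by 0.34 (SE 0.042) over untreated and 0.30 (SE 0.042) over GSK-484 cells. TMEM106C, a membrane protein, had 94.1, 95.0 and 99.3 CPM in TP-472 libraries, against 82.7, 78.0 and 80.1 CPM in GSK-484 libraries and 78.6, 82.8 and 85.6 CPM in untreated libraries, with changes of 0.22 (SE 0.039) over untreated and 0.26 (SE 0.040) over GSK-484 cells. RAB11B had fractional counts in 8 of 9 libraries and KRT15 in 1, so they are uncertain.

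The remaining genes of the 11 fell. SFRP1, a secreted inhibitor of Wnt signalling, had 501, 501 and 494 CPM in TP-472 libraries, against 571, 587 and 581 CPM in GSK-484 libraries and 606, 596 and 594 CPM in untreated libraries. Every TP-472 library lay below the rest, with changes of -0.26 (SE 0.026) over untreated cells, with an edgeR adjusted p of 2.54e-06, and -0.22 (SE 0.026) over GSK-484 cells, with an edgeR adjusted p of 8.24e-05. CCDC80, a matrix-associated protein, had 64.4, 65.2 and 65.2 CPM in TP-472 libraries, against 79.8, 77.9 and 82.0 CPM in GSK-484 libraries and 76.4, 77.1 and 74.5 CPM in untreated libraries. It was lowest with TP-472 and changed by -0.23 (SE 0.035) over untreated cells, with an edgeR adjusted p of 1.01e-04, and -0.30 (SE 0.035) over GSK-484 cells, with an edgeR adjusted p of 6.66e-05. After GC trend removal it had -0.14 over untreated cells. ANGPTL2, a secreted angiopoietin-like protein, had 67.8, 67.6 and 66.8 CPM in TP-472 libraries, against 79.1, 88.2 and 83.9 CPM in GSK-484 libraries and 78.5, 78.5 and 78.9 CPM in untreated libraries, with changes of -0.22 (SE 0.043) over untreated and -0.31 (SE 0.043) over GSK-484 cells, and -0.34 over untreated cells after GC trend removal. PLK2, a kinase induced by p53 and by stress, had 139, 142 and 137 CPM in TP-472 libraries, against 162, 166 and 166 CPM in GSK-484 libraries and 167, 164 and 169 CPM in untreated libraries. The groups did not overlap, and PLK2 changed by -0.25 (SE 0.031) over untreated and -0.24 (SE 0.031) over GSK-484 cells. AOX1, aldehyde oxidase, changed by -0.35 (SE 0.040) over untreated and -0.34 (SE 0.040) over GSK-484 cells. LIMCH1, an activator of non-muscle myosin, changed by -0.35 (SE 0.047) over untreated and -0.28 (SE 0.047) over GSK-484 cells.

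**Figure D5:**
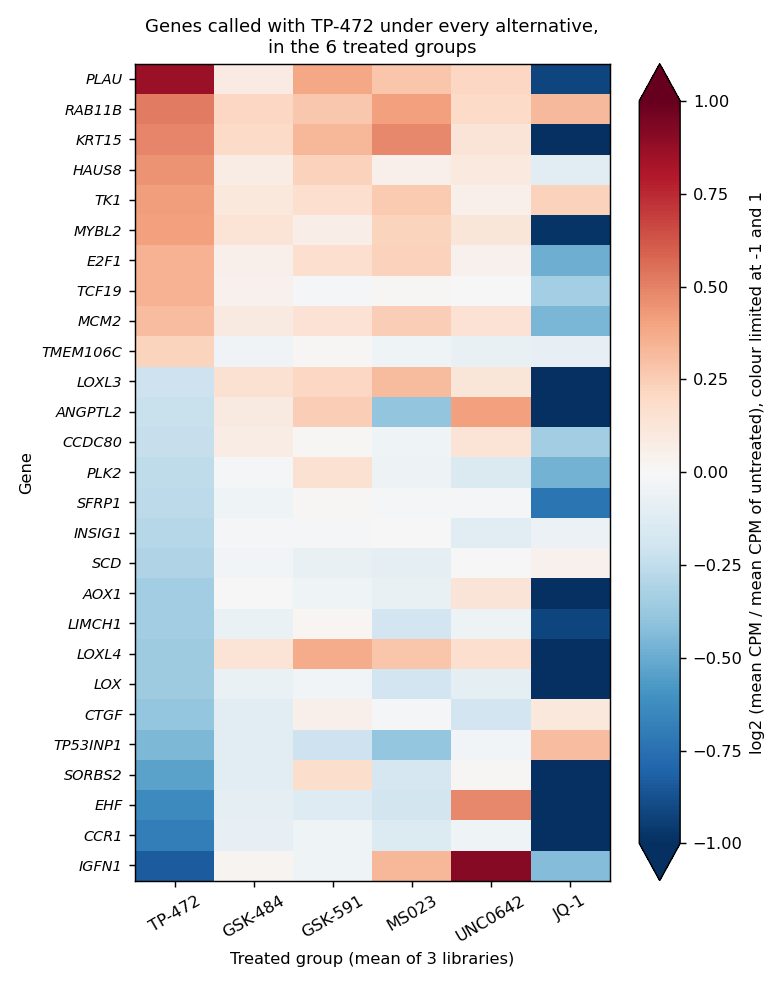
Log2 ratio of the mean CPM of each treated group to that of untreated cells (colour, limited at -1 and 1) for the 27 genes called with TP-472 in both comparisons under the 14 recomputed alternatives (rows), in the 6 treated groups (columns, 3 libraries each). The TP-472 column is red for the upper 10 genes and blue for the lower 17, as their selection required. The JQ-1 column runs from 0.32 for RAB11B to -7.75 for EHF. The JQ-1 mean of EHF was only 0.15 CPM, so the size of that ratio is uncertain.

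Set beside the other compounds, the mean of the 10 rising genes was higher with TP-472 than with GSK-484, GSK-591, MS023, UNC0642 or JQ-1 in 10 of 10 cases each. The mean of the 17 falling genes was lower with TP-472 than with GSK-484, GSK-591 and UNC0642 in 17 of 17 cases each, than with MS023 in 16, and than with JQ-1 in 5. The genes were chosen for their values with TP-472 over untreated and GSK-484 cells, so the counts against GSK-484 followed from that choice. The counts against the other compounds use the same TP-472 means, so they were partly set by it too. They are not independent evidence that a change belongs to TP-472, and the share over all genes was not computed. The ratios below share the untreated libraries. TP-472 had log2 ratios of the means over untreated cells of -0.63 for EHF, -0.69 for CCR1, -0.53 for SORBS2, -0.36 for LOXL4 and -0.36 for LOX, where JQ-1, the other bromodomain inhibitor, had -7.75, -6.84, -3.54, -2.33 and -2.02. The JQ-1 means were only 0.15 CPM for EHF and 0.22 CPM for CCR1, so the size of their ratios is uncertain. For CTGF the ratio was -0.39 with TP-472 and 0.10 with JQ-1, and for TP53INP1 it was -0.45 with TP-472 and 0.31 with JQ-1. Among rising genes, MYBL2 had 0.41 with TP-472 and -0.98 with JQ-1, and E2F1 had 0.35 with TP-472 and -0.49 with JQ-1. IGFN1 had -0.83 with TP-472, against 0.91 with UNC0642 and 0.33 with MS023. ANGPTL2 was the exception against MS023, with -0.22 for TP-472 and -0.39 for MS023. No test was made of the differences between TP-472 and the compounds other than GSK-484 and the mean of the 4 groups.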

How the data were processed

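Reads were aligned and quantified by the authors with Bowtie2 2.1.0 and RSEM 1.2.15 on hg38, per the submitters' processing notes. The deposited table holds RSEM expected counts for 26475 genes in 21 libraries, and read sharing between genes makes some of them fractional. The annotation, strandedness and any filter before deposit are not stated in the labels.

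Expected counts were rounded to whole numbers and tested with edgeR 4.0.16 (R 4.3.3), using TMM scaling, filterByExpr with a minimum count of 10 and a minimum total of 15, and the quasi-likelihood test with 7 groups of 3 libraries and no covariate. This left 15062 genes. Log2 fold changes used a prior count of 0.125, and the SE was the absolute log2 fold change divided by the square root of F. The 3 TP-472 libraries were compared with the 3 untreated and the 3 GSK-484 libraries. No pair of replicates held identical values, and the chi-square per degree of freedom between replicates was 4.75 to 8.14 in TP-472, 6.29 to 19.9 in GSK-484 and 8.77 to 58.0 in untreated libraries, so each was counted as 1 sample. The GC trend was removed with loess offsets (span 0.3, 4 iterations, log2 CPM with prior count 2) on the GC content of the longest GENCODE 29 transcript, known for 96.8% of tested genes.

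Members and lists, 45 of them with 796 entries, were chosen with earlier results of these data known. Named genes were the 15 largest rises and 15 largest falls called in both comparisons and with the GC trend removed, with at least 3 CPM, no group overlap and whole counts, then up to 4 members per list called in both with the largest change and up to 2 called the other way, and BRD9 and BRD7. The alternatives were DESeq2 1.42.0, RLE or total-count scaling, no filter, GC trend removal, a replicate block, the 2 groups alone, a 1.2-fold minimum (glmTreat) and each library left out in turn. The procedure was tested on simulated data. Results for some members of the lists are not reported here, although the counts include them.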

Additional observations from a re-analysis of the deposited data

How the results depend on the processing

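Against the mean of the 4 treated groups in place of untreated cells, 1296 genes were called (588 higher, 708 lower). Over untreated cells, 1716 genes were called with the GC trend removed (834 higher, 882 lower), 1608 with the replicate block and the GC trend removed (781, 827) and 21 with the 1.2-fold minimum (7, 14). Leaving out each library gave 2789 to 4927 calls (1577 to 2580 higher, 1212 to 2347 lower), with the fewest without untreated replicate 1. Over GSK-484 cells, DESeq2 called 524 genes (226 higher, 298 lower), GC trend removal gave 520 (252, 268), the replicate block with GC trend removal 481 (240, 241), the 2 groups alone 58 (23, 35) and the 1.2-fold minimum 3 (1, 2). Total-count scaling gave 80 lower calls over GSK-484 cells and 61 in both comparisons, and the higher share in both was 61.1%, against 44.2% with TMM. Leaving out each library gave 79 to 604 calls over GSK-484 cells (24 to 299 higher, 55 to 305 lower) and 56 to 448 in both (19 to 217 higher, 37 to 231 lower). For calls in both comparisons, DESeq2 gave 390 (162 higher, 228 lower), the 2 groups alone 44 (17, 27) and the 1.2-fold minimum 3 (1, 2). The cause of these shifts was not tested.

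With the replicate block alone, 4654, 290 and 204 genes were called over untreated cells, over GSK-484 cells and in both. Deviations from the group means correlated by 0.046, 0.058 and 0.050 between TP-472 and untreated libraries of the same number, where every TP-472 library correlated best with its own number, and by -0.015, 0.012 and -0.017 for GSK-484. The labels give no meaning to the numbers, so the block was not taken as a pairing.

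The direction of the target genes was not stable. BRD9 over GSK-484 cells had a log2 fold change of 0.017 with total-count scaling, and 0.0016 and 0.0089 without TP-472 replicate 1 and GSK-484 replicate 1 (range on leaving out each library -0.018 to 0.0089), and it had -0.036 against the mean of the 4 treated groups. BRD7 over GSK-484 cells had -0.0043 and -0.0018 without TP-472 replicate 3 and GSK-484 replicate 1 (range -0.0043 to 0.039). Over all named genes and alternatives, 978 values over untreated cells or over the mean of the 4 treated groups kept direction and call. In the same values, 54 lost the call, 2 gained it and 1 changed sign, that of BRD9 against the mean of the 4 groups. That mean supplied 66 of the values that kept both and 2 of those that lost the call. Over GSK-484 cells, 740 kept both, 221 lost the call and 5 changed sign. With 3 libraries per group from 1 cell line, and most changes under 1.5-fold, a gene without a call is not shown to be unaffected.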
